A study of Rattus norvegicus with 16 samples.

Results

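The genes described here encode enzymes of cholesterol synthesis in rat liver: Acat2, Hmgcs1, Mvd, Idi1, Sqle, Tm7sf2, Nsdhl and Dhcr7. They were chosen by gene symbol, with earlier results of these data known. For each, the brightest array row that carries that symbol and no other was used. Of these 8 genes, 7 had such a row, out of 13215 genes with a row of their own, and Hmgcs1 was not analysed here. Each of the 7 has a single row, so no choice between rows was needed. All 7 are enzymes of synthesis. Genes of cholesterol uptake are therefore given from a separate list.

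The livers came from 16 male Sprague Dawley rats, 4 in each of 4 groups, and the RNA of each animal was hybridised to its own Affymetrix Rat Exon 1.0 ST array. The Fed group ate throughout. The P2 group was fasted to phase 2 of fasting, when the body lives mainly on its fat, and the P3 group to phase 3, when protein breakdown rises. The P3r2 group was fasted to phase 3 like the P3 group and then fed again for 2 days. The labels name no other treatment, and they state neither ages nor fasting durations. Values are log2 signals, so a difference of 1 is a doubling.

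Cholesterol is made from acetyl-CoA. Cytosolic thiolase and HMG-CoA synthase build the carbon skeleton, the mevalonate pathway turns it into isoprene units, and these are joined to squalene, which is oxidised and closed into lanosterol. A series of reductases, demethylating enzymes and isomerases then makes cholesterol from lanosterol. The genes of this pathway are classic targets of the sterol regulatory element binding proteins (SREBPs), membrane-bound transcription factors that are released when sterols in the endoplasmic reticulum run low. In the liver the product goes into membranes, lipoproteins and bile acids.

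The promoters are shown because the genes moved together and because SREBPs work there with the factors NF-Y, which binds the letters CCAAT, and Sp1, which binds GGGCGG. RefSeq promoters of build GRCr8 were found for 6 of the 7 genes, all but Sqle. The 250 bases before the gene start are given for 4 of them, 5′ to 3′ on the strand of the gene, with matches to CCAAT or GGGCGG on either strand in capitals. Nsdhl lies at chrX:155817110-155817359 on the plus strand, Idi1 at chr17:66547525-66547774 on the minus strand, Mvd at chr19:67414975-67415224 on the minus strand and Dhcr7 at chr1:208444184-208444433 on the plus strand.
Nsdhl: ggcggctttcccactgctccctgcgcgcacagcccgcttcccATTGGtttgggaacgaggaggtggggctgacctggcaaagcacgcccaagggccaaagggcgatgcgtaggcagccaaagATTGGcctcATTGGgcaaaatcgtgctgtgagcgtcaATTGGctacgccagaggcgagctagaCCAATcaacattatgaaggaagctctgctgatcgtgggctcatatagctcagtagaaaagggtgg
Idi1: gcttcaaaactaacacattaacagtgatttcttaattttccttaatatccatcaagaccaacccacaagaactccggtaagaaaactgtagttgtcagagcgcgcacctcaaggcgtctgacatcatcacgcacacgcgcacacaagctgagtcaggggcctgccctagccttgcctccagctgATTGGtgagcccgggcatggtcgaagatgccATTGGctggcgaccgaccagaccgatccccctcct
Mvd: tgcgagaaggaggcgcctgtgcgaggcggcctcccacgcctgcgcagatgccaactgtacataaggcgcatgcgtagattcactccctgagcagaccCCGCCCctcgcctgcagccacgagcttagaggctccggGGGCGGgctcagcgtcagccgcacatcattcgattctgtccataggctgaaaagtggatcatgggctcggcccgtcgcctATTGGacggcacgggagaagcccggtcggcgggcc
Dhcr7: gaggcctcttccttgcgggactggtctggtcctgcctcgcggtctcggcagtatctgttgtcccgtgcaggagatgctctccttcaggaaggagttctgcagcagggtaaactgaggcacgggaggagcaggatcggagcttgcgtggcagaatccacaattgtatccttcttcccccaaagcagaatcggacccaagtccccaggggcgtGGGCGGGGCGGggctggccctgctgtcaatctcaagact

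CCAAT was found in 4 of the 6 promoters (Nsdhl, Idi1, Mvd and Tm7sf2), against 34.4% of the 11909 promoters of genes on the array and 34.0% of all 33469 promoters in the same window. Nsdhl held 5 matches, starting 208, 128, 119, 91 and 65 bases before the gene start, a number reached by 0.285% of the promoters of array genes. Idi1 held 2, starting 66 and 35 bases before the start, Mvd held 1 at 35 bases and Tm7sf2 held 1 at 89 bases. At least 2 matches stood in 10.5% of the promoters of array genes. GGGCGG was found in 4 of the 6 (Acat2, Dhcr7, Mvd and Tm7sf2), against 46.1% of promoters of array genes. In Dhcr7 the 2 matches overlap and start 39 and 34 bases before the gene start. Acat2 had 2 matches, starting 119 and 67 bases before it, and no CCAAT. Mvd also had 2 matches to GGGCGG, and 24.5% of the promoters of array genes had at least 2. A form of the sterol regulatory element, TCACNCCAC, was in none of the 6, against 0.924% of promoters of array genes. Another form that can overlap it, CANCCCAC, was in Idi1 alone (5.6% of array genes), and the E-box CACGTG was in none (6.91%). These counts say only which letters stand in this window.

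By mean signal over all 16 arrays the 7 genes were fairly bright. Between 76.8% (Sqle) and 97.5% (Nsdhl) of the 18885 rows tested had a lower mean. Over all rows, Pearson r lay between 0.966 and 0.992 for arrays of the same group and between 0.912 and 0.985 otherwise. The arrays Fed 2, P2 4 and P3 3 had the narrowest spread of values in their groups (SD 2.12, 2.14 and 2.18), so the main counts of the 7 genes are also given without them. Fed 2 was the lowest fed array for all of the 7 genes but Tm7sf2. Hepatocyte markers were among the brightest rows (Alb, albumin, had a mean log2 signal of 13.32). The adipocyte markers Adipoq, Lep, Fabp4 and Plin1 had means of 2.81, 3.12, 2.90 and 4.68. In the text below, "called" stands for a limma adjusted p under 0.05 over all 18885 rows, and differences are log2 differences ± the standard error of that fit, with 4 arrays per group.

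**Figure D1:**
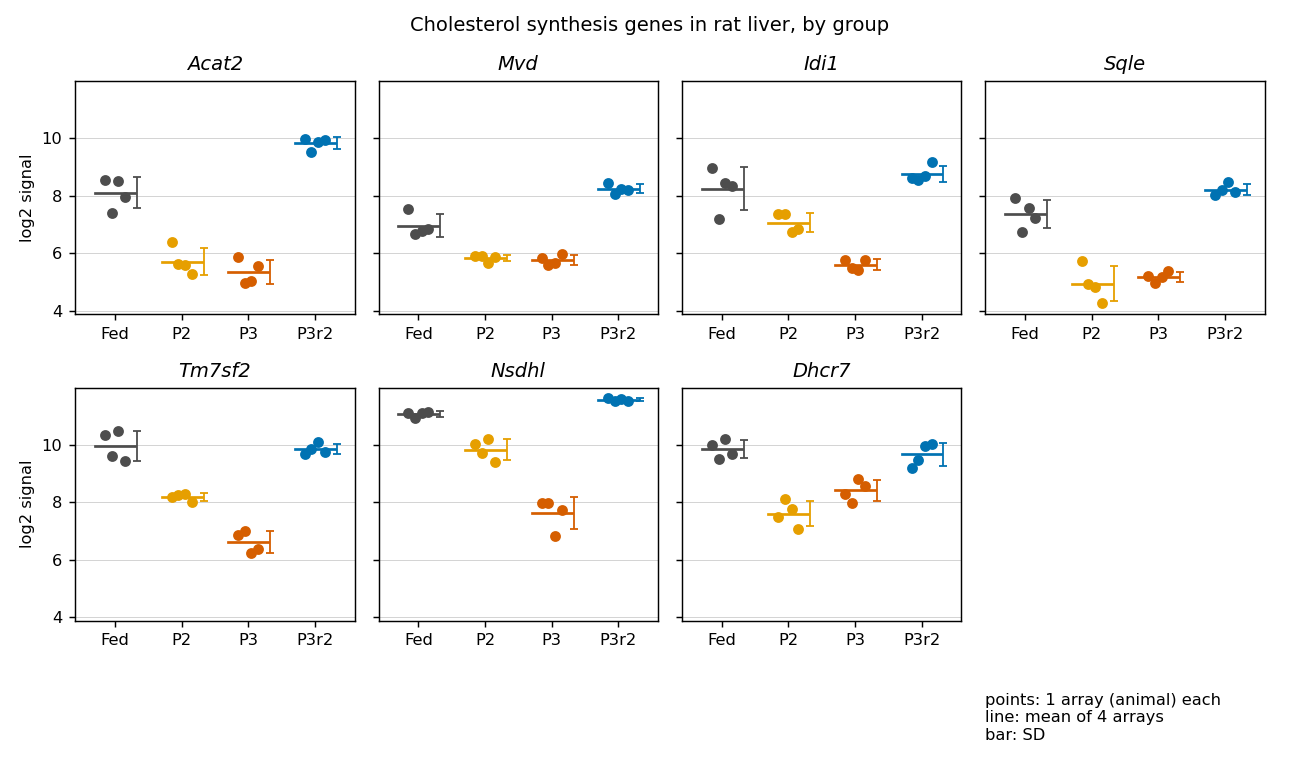
Log2 signal of the 7 cholesterol synthesis genes (vertical axis) in each of the 16 arrays, by group (horizontal axis). Each point is 1 animal, the line is the mean of 4 animals and the bar is the SD. All 4 P3r2 values of Acat2, Mvd, Sqle and Nsdhl lie above all fed values. The mean of Nsdhl is lowest in P3 and that of Dhcr7 in P2, though the P2 and P3 values of Dhcr7 overlap.

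All 7 genes were lower in both fasted groups than in fed liver, and all 7 were higher after 2 days of re-feeding than at phase 3. At phase 2 the falls ranged from 2.19-fold to 5.37-fold, and all 7 genes were called lower, where 6.58% of all rows were. For 6 of them, all but Idi1, the 4 P2 values lay below the 4 fed values, where 9.0% of all rows did so. At phase 3 the falls ranged from 2.29-fold to 10.9-fold, with all 7 called lower against 8.06% of all rows. All 7 had P3 values below all fed values, against 8.05% of all rows. After re-feeding all 7 were called higher than at phase 3, by 2.39-fold to 22.2-fold, against 10.5% of all rows, and the groups did not overlap for any of them (12.6% of all rows). The same 7 were called higher than at phase 2 as well, against 11.3% of all rows, and again no group overlapped (14.9% of all rows). Without the arrays Fed 2, P2 4 and P3 3, these counts were again 7 in each comparison. Because the genes were chosen with earlier results of these data known, the counts and shares are a description. In a tissue homogenate, fewer cells of a type and less RNA per cell cannot be told apart.

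The comparisons P2 against fed, P3 against fed and P3r2 against fed share the fed arrays, so their likeness is not independent evidence. The median difference of the 7 genes was -1.78 at phase 2 and -2.64 at phase 3 against fed, while the median over all rows was 0.05 and 0.03. Against phase 3, re-fed liver had a median difference of 3.16 over the 7 genes and -0.03 over all rows.

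Of 5 measured stellate markers, 1 was called higher and 2 lower in P2 against fed, and the same numbers were called in P3 against fed. Their summed signal, on a log2 scale, lay between 9.70 and 10.46 in fed, 9.08 and 9.59 in P2, 9.88 and 11.11 in P3 and 9.38 and 10.01 in P3r2. For the 4 hepatocyte markers it lay between 14.87 and 15.10 in fed, 15.18 and 15.22 in P2, 14.79 and 14.89 in P3 and 15.03 and 15.09 in P3r2. Of the 4 hepatocyte markers, none was called in P2 against fed, 1 was called lower in P3 against fed, 2 lower in P3 against P2 and 2 higher in P3r2 against P3. None of the 5 Kupffer cell markers was called in P2 or P3 against fed. The part of these cells in the results was not tested.

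The early steps of the pathway were represented by Acat2, Mvd and Idi1. Acat2 (transcript cluster 7027017) is the cytosolic acetoacetyl-CoA thiolase that joins the first acetyl units. Its log2 signal was 8.54, 7.40, 8.50 and 7.95 in the 4 fed animals and 6.39, 5.62, 5.57 and 5.26 at phase 2. It was 5.85, 4.95, 5.04 and 5.56 at phase 3 and 9.97, 9.52, 9.86 and 9.93 after re-feeding. The fasted arrays lay below all fed arrays and the re-fed arrays above all of them, while P2 and P3 overlapped. Acat2 had the largest rise of the 7 genes from phase 3 to re-feeding, 4.47 ± 0.28 (22.2-fold, adjusted p = 2.38e-08). It ended 1.72 ± 0.28 above fed liver, 3.3-fold (adjusted p = 0.00367). The difference between P3 and P2 was -0.36 ± 0.28 and was not called (adjusted p = 0.413).

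Mvd (transcript cluster 7186293), the mevalonate diphosphate decarboxylase that makes the first isoprene unit, had log2 signals of 7.54, 6.68, 6.78 and 6.83 in fed liver. The values were 5.90, 5.89, 5.66 and 5.86 at phase 2, 5.83, 5.59, 5.66 and 5.96 at phase 3 and 8.44, 8.07, 8.25 and 8.20 after re-feeding. The fasted groups lay on top of each other, below the fed group, and the re-fed group lay above it. Mvd fell by 1.13 ± 0.16 at phase 2 (adjusted p = 0.00083) and by 1.19 ± 0.16 at phase 3 (adjusted p = 6.19e-05), and P3 differed from P2 by -0.07 ± 0.16 (adjusted p = 0.826). After re-feeding it was 1.28 ± 0.16 above fed liver (adjusted p = 0.000641).

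Idi1 (transcript cluster 7166170) is the isomerase that interconverts the isoprene units. Its fed values of 8.98, 7.19, 8.42 and 8.35 included Fed 2, which lay at the level of the highest P2 arrays (7.35, 7.36, 6.72 and 6.84). The P3 values were 5.76, 5.48, 5.4 and 5.75, below every P2 array, and the re-fed values were 8.62, 8.55, 8.69 and 9.17. Idi1 fell by 1.17 ± 0.29 at phase 2 (adjusted p = 0.0164). This call was lost without P2 4 (-1.09, adjusted p = 0.055) and in a fit of the P2 and fed groups alone (adjusted p = 0.0678), and the difference was -1.44 without the 3 arrays of narrow spread (adjusted p = 0.00216). At phase 3 the gene was lower than at phase 2 by a further step, -1.47 ± 0.29 (adjusted p = 0.00147). The re-fed level was 0.52 ± 0.29 above fed and was not called (adjusted p = 0.458).

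Sqle (transcript cluster 7317317) encodes squalene epoxidase, a rate-limiting enzyme that acts just before the sterol ring is closed. Its fed values were 7.91, 6.74, 7.56 and 7.23, and its P2 values 5.72, 4.94, 4.83 and 4.25. At phase 3 they were 5.19, 4.95, 5.16 and 5.38, and after re-feeding 8.02, 8.20, 8.47 and 8.13. The P3 values sat inside the range of the P2 values, and the re-fed values sat above all fed ones. P3 and P2 differed by 0.23 ± 0.27 (adjusted p = 0.599). Sqle rose by 3.03 ± 0.27 from phase 3 to re-feeding (8.19-fold, adjusted p = 9.46e-07). Against fed liver the re-fed difference of 0.84 ± 0.27 was not called (adjusted p = 0.119), although the groups did not overlap.

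The later steps, from lanosterol to cholesterol, were represented by Tm7sf2, Nsdhl and Dhcr7. Tm7sf2 (transcript cluster 7059908) is a sterol reductase that acts after the first demethylation. Its values were 10.33, 9.61, 10.47 and 9.42 in fed liver, 8.18, 8.24, 8.29 and 7.99 at phase 2, 6.86, 7.0, 6.23 and 6.36 at phase 3 and 9.69, 9.85, 10.10 and 9.76 after re-feeding. The fed, P2 and P3 groups formed 3 separate steps, and the re-fed values lay inside the fed range. The step from P2 to P3 was -1.56 ± 0.22 (adjusted p = 0.000116), and the re-fed level differed from fed by -0.11 ± 0.22 (adjusted p = 0.928).

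Nsdhl (transcript cluster 7378456), a decarboxylating sterol dehydrogenase that helps to remove methyl groups, had fed values of 11.12, 10.92, 11.10 and 11.13, the tightest of the 7 genes. The values were 10.01, 9.71, 10.21 and 9.38 at phase 2 and 7.97, 7.96, 6.81 and 7.72 at phase 3. After re-feeding they were 11.62, 11.52, 11.60 and 11.54. Here too the groups formed separate steps, and the re-fed arrays lay above all fed arrays. Between the phases of fasting Nsdhl fell by 2.22 ± 0.22 (4.65-fold, adjusted p = 5.72e-06), the largest step of the 7 genes in that comparison. It then rose by 3.95 ± 0.22 on re-feeding (15.5-fold, adjusted p = 6.71e-09). The re-fed difference from fed, 0.50 ± 0.22, was not called (adjusted p = 0.296), but it was in a fit of the P3r2 and fed groups alone (adjusted p = 0.0249) and with array weights (0.48, adjusted p = 0.0489).

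Dhcr7 (transcript cluster 7038734) encodes the reductase that makes cholesterol in the final step of one branch of the pathway. Its values were 9.99, 9.51, 10.19 and 9.68 in fed liver and 7.49, 8.11, 7.76 and 7.06 at phase 2. They were 8.29, 7.96, 8.82 and 8.56 at phase 3 and 9.19, 9.48, 9.96 and 10.04 after re-feeding. P2 was the lowest group, P3 lay above it with 1 array in its range, and the fed and re-fed groups overlapped. The difference between P3 and P2 was 0.80 ± 0.25 and was called higher (adjusted p = 0.0307). That call was lost without the 3 arrays of narrow spread (0.48, adjusted p = 0.189), without any 1 of P2 1, P2 4, P3 3 and P3 4 (0.76, 0.62, 0.66 and 0.75, adjusted p from 0.0678 to 0.106) and after quantile normalization (0.62, adjusted p = 0.0809). The rise from phase 3 to re-feeding, 1.26 ± 0.25 (adjusted p = 0.00182), was the smallest of the 7. The re-fed level differed from fed by -0.18 ± 0.25 and was not called (adjusted p = 0.877).

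**Figure D2:**
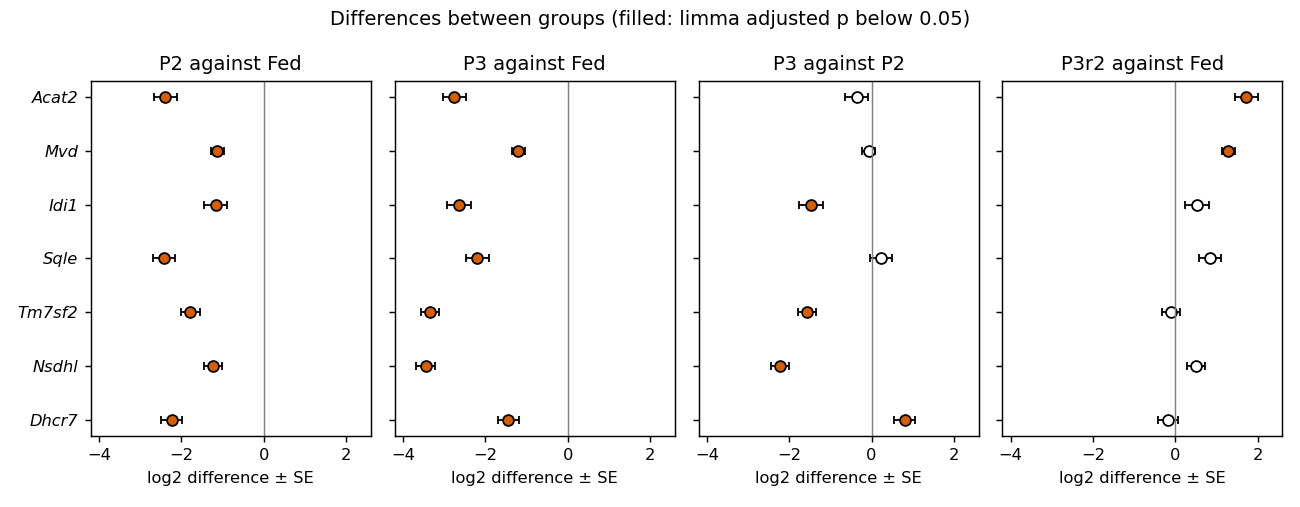
Log2 difference between groups (horizontal axis, ± the standard error of the fit, 4 arrays per group) for each of the 7 genes (vertical axis), in 4 comparisons. Filled points have a limma adjusted p under 0.05. All points lie left of 0 for both fasted groups against fed, they spread to both sides between P3 and P2, and only Acat2 and Mvd are called in P3r2 against fed.

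The order of the group means therefore differed between the 7 genes. Between P2 and P3, Idi1, Tm7sf2 and Nsdhl fell, Dhcr7 was called higher, and Acat2, Mvd and Sqle were not called. This is 3 of 7 called lower against 8.53% of all rows. The 1 of 7 called higher is near the share of all rows (13.5%), and the call of Dhcr7 was lost in 10 of 21 alternatives. The 3 genes that fell also had no overlap between the groups (9.36% of all rows). Acat2, Mvd, Idi1 and Nsdhl had their lowest mean in P3, as did Tm7sf2, while Sqle and Dhcr7 had it in P2. For Acat2, Mvd and Sqle the 2 fasted groups were neighbours that did not differ beyond their spread. These genes also had the lowest P2 means of the 7 (5.71, 5.83 and 4.94), while the array medians were 4.34 to 4.46. The P2 means of Idi1, Tm7sf2, Nsdhl and Dhcr7 were 7.07, 8.17, 9.83 and 7.61. Whether compression of low signals hid a further fall was not tested.

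The pair with the most unequal course, picked after its values were seen and so not tested, was Dhcr7 and Nsdhl. The log2 ratio of Dhcr7 to Nsdhl within an array, set to 0 at the fed mean, was -1.0 ± 0.42 (SD, n = 4) in P2 and 2.01 ± 0.88 in P3. In single animals it ran from -1.30 to -0.38 in P2 and from 1.22 to 3.23 in P3. The 3.23 was that of P3 3, which had the highest P3 signal of Dhcr7 (8.82) and the lowest of Nsdhl (6.81). The pair was picked for its unequal course, so the lack of overlap between P2 and P3 is not a further result. In re-fed liver it was -0.68 ± 0.42.

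Acat2 and Mvd were called higher in P3r2 than in fed liver, 2 of 7 against 2.21% of all rows. None was called lower, against 0.514% of all rows. In 4 of 7 genes (Acat2, Mvd, Sqle and Nsdhl) the re-fed values lay above all fed values, against 9.85% of all rows. The median difference was 0.52 over the 7 genes and 0.02 over all rows. The re-fed animals were also close to one another: the mean of the 7 genes, each centred on its mean over all arrays, was 1.54 ± 0.12 (SD, n = 4) in P3r2 and 0.89 ± 0.40 in fed. It was -0.88 ± 0.27 in P2 and -1.54 ± 0.17 in P3. By animal, this mean was 1.30, 0.39, 1.1 and 0.75 in fed liver, with Fed 2 lowest, and -0.61, -0.78, -0.90 and -1.24 at phase 2, with P2 4 lowest.

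Across the 16 arrays, the 21 pairs of these genes correlated at 0.58 to 0.97, with a median Pearson r of 0.86. These values carry the differences between groups that all genes share. With each group's mean taken out, 20 of the 21 pairs correlated above 0, with a median r of 0.43 and a range of -0.16 to 0.82 over 16 deviations. The share of other gene pairs above 0 was not computed. Acat2 and Sqle were the closest pair within groups (0.82), followed by Acat2 and Idi1 (0.76) and Idi1 and Sqle (0.70). Nsdhl and Dhcr7 were the pair below 0 (-0.16). The points share arrays, so any property of an array that moves many genes enters all of these values, and they are given as a description. Most other measured genes of cholesterol metabolism also correlated above 0 within groups with the mean of these genes. Abcg8 had 0.695 and Nceh1 0.56, though over the 16 arrays they had 0.20 and -0.22. Only Insig1 (-0.54), Hsd3b7 (-0.18) and Lrp1 (-0.14) were below 0. The part of such array properties was not tested.

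**Figure D3:**
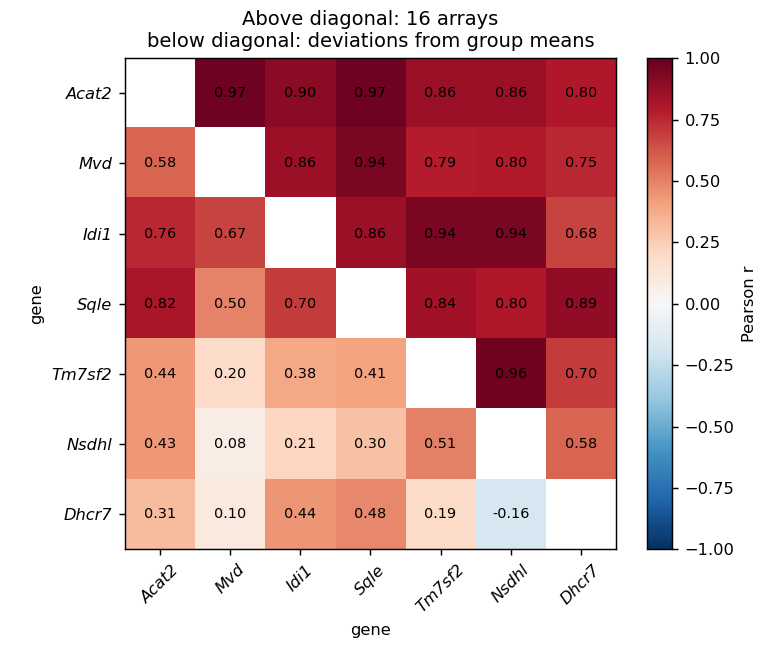
Pearson r between the log2 signals of each pair of the 7 genes (both axes), over the 16 arrays above the diagonal and over deviations from the group means below it. Colour runs from blue (r of -1) to red (r of 1). Below the diagonal, the pairs among Acat2, Mvd, Idi1 and Sqle run from 0.50 to 0.82. Tm7sf2 with Nsdhl has 0.51, inside that range, and Nsdhl with Dhcr7 is the pair below 0.

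Of 13208 other genes, the 8 whose log2 signal over the 16 arrays was most like the mean of the 7 were Cyp51, Msmo1, Fdft1, Aldh1b1, Acacb, Ap3m1, Pgm3 and Uso1, with Pearson r from 0.988 to 0.966. The first 3 are themselves enzymes of sterol synthesis: the lanosterol demethylase (r = 0.988), a methylsterol oxidase (r = 0.983) and squalene synthase (r = 0.974). With group means taken out, their r was 0.76, 0.73 and 0.57. Such values also occur in genes of another course: Cyp27a1 had 0.68 within groups and -0.82 over the 16 arrays. Insig1 had -0.54 and -0.31. Aldh1b1 is a mitochondrial aldehyde dehydrogenase (0.40 within groups), and Acacb, the mitochondrial acetyl-CoA carboxylase, had -0.19 within groups. Over arrays that differ by group, any gene with the same order of group means ranks high.

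Among the other enzymes of sterol synthesis, most of those called went the same way as the 7 genes. Of 14 listed, 10 had a row, and the others were not analysed here. At phase 2 against fed, 5 of 10 were called lower and 0 higher (6.58% and 6.13% of all rows), with a median of -0.79. At phase 3, 6 were called lower and 2 higher (8.06% and 11.3% of all rows), with a median of -1.26. After re-feeding, 7 were called higher and 1 lower than at phase 3 (10.5% and 7.93% of all rows), with a median of 1.63.

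Cyp51 (10.55, 9.75, 10.44 and 10.05 in fed, 7.60, 7.35, 8.0 and 7.66 at phase 3) fell by 1.65 ± 0.21 at phase 2 and by 2.55 ± 0.21 at phase 3. Msmo1 differed from fed by -1.95 ± 0.28 and -2.92 ± 0.28, Fdft1 by -1.34 ± 0.20 and -1.95 ± 0.20, and Lss, the cyclase that closes the ring to lanosterol, by -1.89 ± 0.21 and -1.97 ± 0.21, and all 6 differences were called. Ebp, a sterol isomerase, was lower at phase 3 (-1.27 ± 0.18, adjusted p = 8.4e-05) and was not called at phase 2 (-0.36 ± 0.18, adjusted p = 0.19). Sc5d, a desaturase, fell by 1.25 ± 0.19 at phase 3. At phase 2 its difference was -0.72 ± 0.19 (adjusted p = 0.0211), a call that was lost without P2 2 (adjusted p = 0.0631) and without P2 4 (adjusted p = 0.0754).

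Not all of these enzymes followed in every comparison, and 5 of 10 were not called at phase 2 against fed. Lbr, the lamin B receptor, has the same sterol reductase activity as Tm7sf2. It was 0.99 ± 0.19 above fed at phase 3 (adjusted p = 0.0013), where Tm7sf2 fell by 3.35 ± 0.22, and it fell by 0.85 ± 0.19 on re-feeding. Hsd17b7, which works in the same demethylation as Nsdhl, was 1.72 ± 0.28 higher at phase 3 than at phase 2 (adjusted p = 0.00034), where Nsdhl fell. Its difference of 0.88 ± 0.28 from fed at phase 3 was called, but not in a fit of the 2 groups alone (adjusted p = 0.0964), nor without Fed 2, Fed 3, Fed 4, P3 1, P3 2 or P3 4 (adjusted p from 0.0518 to 0.123). Without the 3 arrays of narrow spread it was 1.09 (adjusted p = 0.00246). At phase 2 Hsd17b7 differed from fed by -0.85 ± 0.28, which was not called (adjusted p = 0.0591). The P2 and fed values did not overlap there (9.0% of all rows). Without the 3 arrays of narrow spread the phase 2 difference was called (-0.77, adjusted p = 0.0338). Pmvk, phosphomevalonate kinase, was not called in either fasted group against fed (-0.41 ± 0.21 and -0.48 ± 0.21), though both were called without Fed 2 (-0.62 and -0.69, adjusted p = 0.0382 and 0.0147), and it rose by 1.25 ± 0.21 on re-feeding. Erg28, a scaffold of the demethylating enzymes, was not called in any of the 6 comparisons. Without P3 2 it was called in P3 against P2 (-0.84, adjusted p = 0.00893) and in P3r2 against P3 (0.80, adjusted p = 0.0132).

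In re-fed against fed liver, Lss (0.84 ± 0.21, adjusted p = 0.041) and Hsd17b7 (1.19 ± 0.28, adjusted p = 0.033) were called higher, 2 of 10 against 2.21% of all rows. The call of Lss was lost without any 1 array of the 2 groups except P3r2 2 (adjusted p up to 0.127), and that of Hsd17b7 without any 1 except Fed 1 and P3r2 2 (adjusted p up to 0.107). Neither was called after quantile normalization (adjusted p = 0.171 and 0.0769). All 10 differences were above 0, from 0.14 to 1.19, with a median of 0.56, while the median over all rows was 0.02. The share of all rows above 0 was not computed.

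The genes of sterol sensing and SREBP activation moved unequally. Of 7 measured, 3 were called lower at phase 2 against fed (6.58% of all rows). At phase 3 against fed, 2 were lower and 1 higher (8.06% and 11.3% of all rows), and after re-feeding 3 were higher and 2 lower than at phase 3 (10.5% and 7.93%). Srebf2, which encodes the SREBP that mainly drives cholesterol genes, had values of 8.25, 7.96, 8.05 and 8.36 in fed liver and 7.54, 7.15, 7.25 and 6.33 at phase 2. At phase 3 they were 7.30, 7.27, 6.38 and 6.86, and after re-feeding 8.33, 8.23, 8.45 and 8.08. Both fasted groups lay below both feeding groups. It fell by 1.09 ± 0.23 at phase 2 and by 1.20 ± 0.23 at phase 3, and rose by 1.32 ± 0.23 on re-feeding. Srebf1, whose SREBP mainly drives fatty acid genes, fell further, by 2.13 ± 0.21 at phase 2 and by 2.96 ± 0.21 at phase 3, and its re-fed mean of 10.38 was equal to its fed mean of 10.38 to 2 decimals. Scap, the escort protein of the SREBPs, had differences of -0.68 ± 0.21 at phase 2 (adjusted p = 0.045) and -0.57 ± 0.21 at phase 3 (adjusted p = 0.071). The first was no longer called without any 1 array of P2 and fed except P2 3 (adjusted p up to 0.142), and the second was called after quantile normalization (-0.71, adjusted p = 0.00656), and without P3 1 (-0.73, adjusted p = 0.0196).

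Insig1, which holds the SREBPs in the endoplasmic reticulum and is itself an SREBP target, went the other way from the 7 enzymes at phase 3. Its values were 11.37, 12.35, 11.19 and 11.29 in fed liver and 11.24, 11.34, 10.99 and 11.05 at phase 2. They were 13.14, 12.92, 13.37 and 13.15 at phase 3, above all other arrays, and 12.29, 12.47, 12.01 and 11.92 after re-feeding. Insig1 rose by 1.59 ± 0.21 at phase 3 against fed (adjusted p = 5.6e-05) and by 1.99 ± 0.21 against phase 2, and fell by 0.97 ± 0.21 on re-feeding. Its fed group included the high array Fed 2. Without that array the re-fed difference from fed was 0.89 (adjusted p = 0.00646), against 0.62 ± 0.21 with it (adjusted p = 0.15). Insig2, its paralogue, was not called in P2 or P3 against fed (in P2 it was without Fed 2, -0.70, adjusted p = 0.0329) and fell by 1.37 ± 0.20 from phase 3 to re-feeding. It ended 1.63 ± 0.20 below fed (adjusted p = 0.00063), the 1 gene of 7 on this list called in that comparison.

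Of 12 genes of uptake and transport of cholesterol inside the cell, 7 had a row, and the others were not analysed here. At phase 2 against fed, 2 were called lower and 1 higher (6.58% and 6.13% of all rows). At phase 3 against fed, 4 were called lower and 1 higher (8.06% and 11.3% of all rows), and after re-feeding 5 were higher and 1 lower than at phase 3 (10.5% and 7.93%). Npc1, which exports cholesterol from lysosomes, had differences from fed of -1.64 ± 0.28 at phase 2 and -1.94 ± 0.28 at phase 3, both called, and rose by 2.01 ± 0.28 on re-feeding. Lrp1, a receptor for lipoprotein remnants, had called differences of -1.20 ± 0.20 and -2.78 ± 0.20 and rose by 2.04 ± 0.20. Tmem97, which binds Npc1, fell by 1.92 ± 0.29 at phase 3 and rose by 2.84 ± 0.29. Mylip, a ubiquitin ligase that limits lipoprotein uptake, rose by 0.58 ± 0.13 at phase 3 (adjusted p = 0.005) and fell by 0.74 ± 0.13 on re-feeding.

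**Figure D4:**
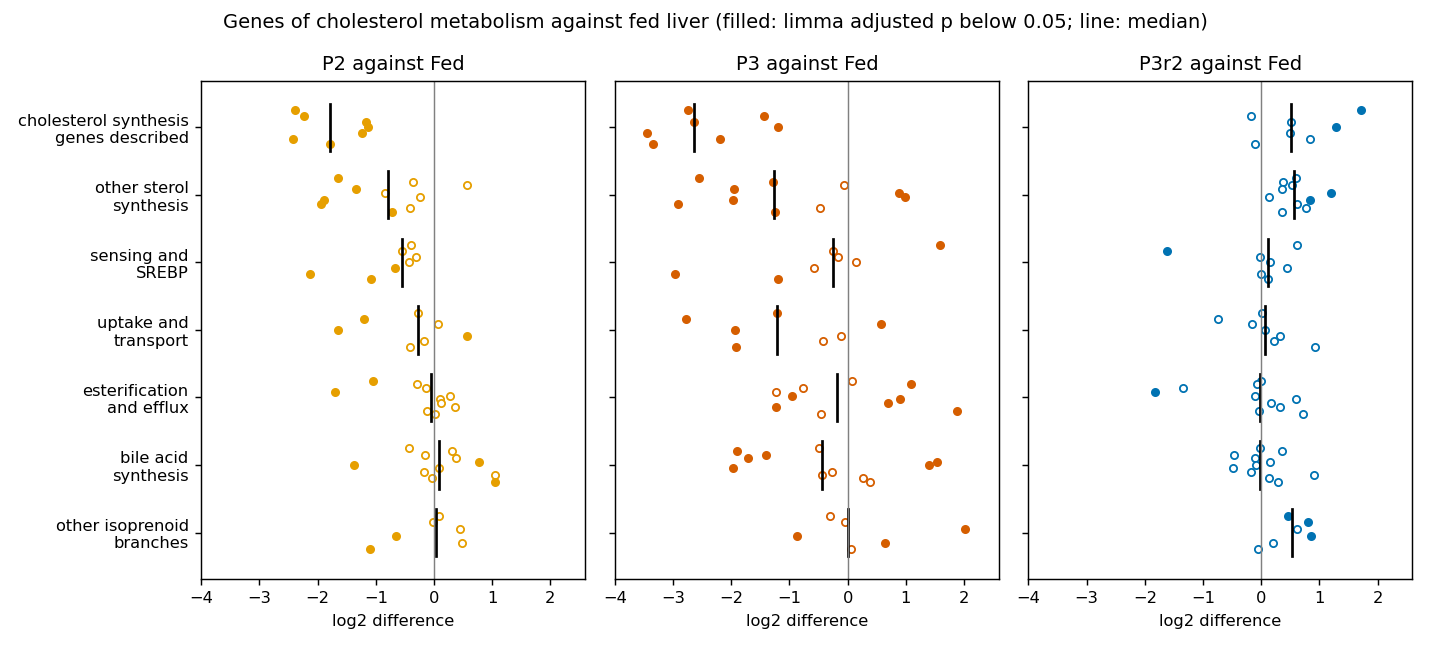
Log2 difference from fed liver (horizontal axis) of each measured gene of cholesterol metabolism, by list (vertical axis), in P2, P3 and P3r2. Each point is 1 gene (the difference of 2 means of 4 arrays), filled where the limma adjusted p is under 0.05, and the black line is the median of the list. The 7 synthesis genes have medians of -1.78, -2.64 and 0.52, and the bile acid list has 0.09, -0.44 and -0.02.

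Of 11 measured genes of bile acid synthesis and its control, 2 were called higher and 1 lower at phase 2 (6.13% and 6.58% of all rows) and 2 higher and 4 lower at phase 3 against fed (11.3% and 8.06% of all rows). Cyp7a1, the enzyme that sets the rate of bile acid synthesis, had values of 11.19, 10.89, 10.79 and 10.07 in fed liver and 10.03, 9.35, 9.38 and 8.66 at phase 2. At phase 3 they were 12.63, 12.76, 10.63 and 12.49, with P3 3 inside the fed range, and after re-feeding 10.77, 10.50, 10.72 and 10.56. Its differences from fed were -1.38 ± 0.40 at phase 2 (adjusted p = 0.035) and 1.39 ± 0.40 at phase 3 (adjusted p = 0.021). The first call was lost without any 1 of Fed 1, Fed 2, Fed 3, P2 2, P2 3 and P2 4 (adjusted p up to 0.115), and the second without any 1 of Fed 4, P3 1, P3 2 and P3 4 (adjusted p up to 0.0738). With Fed 2, P2 4 and P3 3 all left out, both were called (-1.09, adjusted p = 0.0151, and 1.94, adjusted p = 0.000106). Cyp27a1, which opens the other route to bile acids, rose by 0.78 ± 0.17 at phase 2 and by 1.53 ± 0.17 at phase 3. The 4 called lower at phase 3 were Akr1d1 (-1.91 ± 0.21), Baat (-1.72 ± 0.35), Amacr (-1.39 ± 0.24) and Cyp8b1 (-1.97 ± 0.63, adjusted p = 0.0368), which make or conjugate bile acids. P3 3 was the lowest array for each of them. The call of Cyp8b1 was lost without any 1 of Fed 1, Fed 2, Fed 3, Fed 4, P3 3 and P3 4 (adjusted p from 0.0556 to 0.12), and its difference was -1.23 without P3 3.

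Of 10 genes of esterification and efflux, 2 were called lower at phase 2 (6.58% of all rows), and 4 higher and 2 lower at phase 3 (11.3% and 8.06%). After re-feeding 3 were higher and 3 lower than at phase 3 (10.5% and 7.93% of all rows). Soat1, which esterifies cholesterol, rose by 1.87 ± 0.35 at phase 3 and fell by 1.90 ± 0.35 on re-feeding. Soat2, its paralogue, was not called at phase 3 against fed (-0.45 ± 0.26, adjusted p = 0.302). It rose by 1.18 ± 0.26 on re-feeding (adjusted p = 0.00404). Among 6 measured genes of the other isoprenoid branches, 2 were called lower at phase 2 and 2 higher and 1 lower at phase 3, against the same shares of all rows. Fnta, a subunit of farnesyltransferase, rose by 2.02 ± 0.28 at phase 3 (4.06-fold) and fell by 1.41 ± 0.28 on re-feeding. Fntb, its other subunit, fell by 0.87 ± 0.16 at phase 3 and rose by 1.71 ± 0.16 on re-feeding, and ended 0.85 ± 0.16 above fed (adjusted p = 0.0086). Acat1, the mitochondrial thiolase that matches Acat2, differed from fed by 0.57 ± 0.18 at phase 2 (adjusted p = 0.052), by -0.02 ± 0.18 at phase 3 and by 0.43 ± 0.18 after re-feeding, and was called in none of these. Without Fed 3 the first was called (0.71, adjusted p = 0.0206).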

How the data were processed

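Liver RNA of 16 rats was measured on 16 arrays, in 4 groups of 4. The log2 signals per transcript cluster are the authors' deposited values, and the submitters' processing notes name GCOS 1.4 and Expression Console 1.1. How probes were summarised is not stated by the labels or notes, and the log base was inferred from the range of the values (0.84 to 13.6). Log2 signals can be compressed at both ends, so folds may come out too small. Their precision is limited by the number of arrays.

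Of 19418 rows, 533 whose identifiers lie below the annotated range were left out. Symbols came from the array's probe table, updated through RefSeq (GRCr8), which also gave the promoters. Among the 18885 rows tested, 13327 carry 1 symbol, 620 several and 4938 none. The fit used limma 3.58.1 (R 4.3.3) on all 16 arrays together, with 1 coefficient for each group. It gave 6 two-sided comparisons by eBayes, each adjusted by Benjamini-Hochberg over the 18885 rows, at a threshold of 0.05. The steps were tested on simulated data. Figures were drawn with matplotlib 3.10.9. The genes and lists were chosen with earlier results of these data known. The text names all 7 genes, up to 4 called genes per list, direction and comparison, a few fixed key genes, and the 8 most alike genes. It also names genes of the synthesis list and Acat1, chosen after their values were seen. Alternatives are named with their effect in the closing section.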

Additional observations from a re-analysis of the deposited data

Results flagged for a closer look

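In 148 groups of 4 arrays (37 genes in 4 groups), 9 held an array far from the other 3 by Dixon's criterion, where chance gives about 1 in 20. Of these, 2 were in the 7 synthesis genes. Fed 2 had a log2 signal of 10.92 for Nsdhl, against 11.10 to 11.13 in the other fed arrays, and P2 3 had 5.66 for Mvd, against 5.86 to 5.90. Among the other genes, Fed 2 had 12.35 for Insig1 (11.19 to 11.37 in the others), Fed 4 had 8.28 for Npc1 (7.95 to 7.99) and Fed 1 had 7.95 for Scap (7.71 to 7.72). P3 3 had 10.63 for Cyp7a1 (12.49 to 12.76) and 8.88 for Amacr (10.09 to 10.32), P2 1 had 7.49 for Fnta (7.90 to 7.94), and P3r2 2 had 10.68 for Ebp (10.95 to 10.99).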

How the results depend on the processing

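The counts of called genes among the 7 were recomputed with quantile normalization, centring on array medians, a trend or robust option of eBayes, array weights, the 2 groups alone, brighter rows, unannotated rows included, rows of 1 gene averaged, the replicate block, the array spread as a covariate, the 3 arrays of narrow spread left out, a threshold of 0.01, and single arrays left out. The 1 gene called higher in P3 against P2, Dhcr7, was the count that changed most: it was 0 with quantile normalization, array weights, the 2 groups alone, the spread as a covariate, the 3 arrays left out and the threshold of 0.01, and 0 to 1 with single arrays left out. The cause was not tested. The count lower in P2 against fed was 6 to 7 with single arrays left out, and 6 with the 2 groups alone and at the threshold of 0.01. The count higher in P3r2 against fed was 3 in place of 2 with array weights and with the 2 groups alone. Of 882 single gene values under these alternatives, 867 stayed on the same side of the threshold, 13 were no longer called, 2 became called and no called value changed sign. The difference of Tm7sf2 between P3r2 and fed, which was not called, ran from -0.29 to 0.06. Counts over all 18885 rows moved more: those called higher in P3r2 against fed ran from 179 (without P3r2 3) to 1146 (array weights) around 417, and those lower from 56 to 321 around 97. In P3r2 against P2 they ran from 427 (spread as a covariate) to 3126 higher around 2131 and from 335 to 1691 lower around 823, and in P2 against fed from 592 (without P2 4) to 1894 lower around 1242 and from 608 to 1521 higher around 1158. The replicate block left the counts among the 7 genes as they were (7 lower in P2 and in P3 against fed, 7 higher in P3r2 against P3). No pairing of animals by replicate number was seen: of 24 same-numbered pairs, 6 correlated above 0.1, and 2 of 16 arrays correlated best with their own number. This check cannot exclude a pairing, because it has no known pairs to compare with.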
